A study of Mus musculus with 9 samples.

Results

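The Hippo pathway genes described here were Yap1, Wwtr1 (which encodes TAZ), Tead1, Lats2, Ajuba, Amotl2, Axl, Ankrd1, Ccn1 (formerly Cyr61) and Ccn2 (formerly Ctgf). Arrays of newborn mouse epidermis, from Alox12b knockouts and from wildtypes, were the source of all values. Every probe set that the platform annotation gives to one of these 10 genes alone was taken, which made 24 of 45037 probe sets and 10 of 18193 genes. The annotation gives 1 further probe set to Lats2 together with another gene, and it was left out. The genes were chosen by what is known of the pathway and with the knockout and wildtype levels of these same arrays in view, so their differences between the groups are a description, with no p-value.

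There were 9 arrays of the Affymetrix Mouse Genome U430 2.0 type, 4 of Alox12b knockout newborns and 5 of wildtype newborns, each called a biological replicate by its label. Alox12b encodes the 12R-lipoxygenase of the skin barrier, and its loss causes ichthyosis and a leaking barrier. Both groups were killed right after birth, and the offspring of heterozygous parents were genotyped. Epidermis came off the dermis mechanically after a short hot bath in buffered saline, in both groups. The labels give the strain 129S6 for the wildtype samples and no strain for the knockout samples. They do not say which part of Alox12b was deleted, nor whether a sample pooled several animals. Values are log2 expression as deposited, so a difference of 1 is a doubling, and all differences are knockout minus wildtype. Probe sets differ in brightness for the same amount of RNA, so levels were not compared between genes.

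The Hippo pathway is a kinase cascade that keeps the coactivators YAP and TAZ out of the nucleus. LATS kinases phosphorylate them, and in the nucleus the unphosphorylated proteins bind TEAD factors and switch on target genes such as Ccn1, Ccn2 and Ankrd1. Several targets, among them Lats2 and Amotl2, encode inhibitors of YAP and so close a feedback loop. In epidermis YAP acts in basal keratinocytes, where it favours proliferation, and it is drawn into the nucleus in wound repair.

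Some facts of the arrays bear on what follows. Array medians lay between 3.14 and 3.31. Alox12b read 10.84 to 11.60 on the knockout arrays and 10.56 to 11.32 on the wildtype arrays, and since the place of its probes relative to the deletion was not used here, this checks nothing about the labels. Xist, the RNA of the inactive X chromosome, read 9.99 to 10.20 in the knockout group and 10.95 for wildtype array 4, while wildtype arrays 1, 2, 3 and 5 read 3.23 to 4.32, so sex and genotype overlapped almost completely. The mean of the suprabasal keratinocyte markers (5 of 5 measured) was 13.42 to 13.56 on the wildtype and 13.52 to 13.56 on the knockout arrays, and that of the basal markers (5 of 5) was 6.66 to 7.47 and 6.41 to 6.80. The fibroblast markers (7 of 7 measured) had a mean of 5.43 to 7.47 on the wildtype arrays and 5.76 to 8.71 on the knockout arrays. The smooth muscle markers (6 of 6) had a mean of 3.32 to 3.76 on the wildtype arrays and of 3.51 to 3.72 on knockout arrays 1 to 3, with 6.16 on knockout array 4. Knockout array 4 thus stood apart by its dermal markers. The adipocyte markers (4 of 5 measured) averaged 3.68 to 4.51 in the knockout group, while wildtype array 1 had 3.80 and wildtype arrays 2 to 5 had 5.17 to 7.32. Wildtype array 5 stood apart too, with the lowest melanocyte mean (5 of 5 measured), 3.22 against 4.46 to 5.34 on the knockout arrays and 4.52 to 4.78 on the other wildtype arrays. Its mean of the Langerhans cell and macrophage markers (6 of 6) was also the lowest, 4.73 against 5.55 to 5.94 and 5.75 to 7.05. The skeletal muscle markers (8 of 8) had a mean of 4.72 to 6.49 on the knockout and 4.22 to 7.54 on the wildtype arrays, and the endothelial markers (5 of 5) one of 3.03 to 3.45 and 3.14 to 3.55. The part of these cells in the results was not tested. In bulk tissue, fewer cells of a type and less RNA per cell cannot be told apart. Nothing in the labels says that the samples of a group came from separate litters, so the spread between arrays is that of these samples only.

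Promoters are shown for 5 of the 8 genes whose promoters carry the hexamer that TEAD factors bind. Among these 5, Ccn1 was higher and Amotl2 and Ajuba were lower in knockout. Wwtr1 differed between its probe sets, and Ankrd1 did not differ clearly. Each sequence runs 5′ to 3′ on the strand of its gene, from 250 bases before to 50 bases after an annotated transcription start, from RefSeq on GRCm38.p6. The capitals mark GGAATG or its reverse complement.
Ccn1, chr3:145649936-145650235, minus strand: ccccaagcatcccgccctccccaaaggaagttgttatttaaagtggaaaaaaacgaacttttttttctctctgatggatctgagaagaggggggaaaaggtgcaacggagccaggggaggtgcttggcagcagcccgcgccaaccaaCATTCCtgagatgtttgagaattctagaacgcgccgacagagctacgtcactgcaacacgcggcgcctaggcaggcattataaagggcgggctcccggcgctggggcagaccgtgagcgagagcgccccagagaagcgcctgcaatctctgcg
Ankrd1, chr19:36119795-36120094, minus strand: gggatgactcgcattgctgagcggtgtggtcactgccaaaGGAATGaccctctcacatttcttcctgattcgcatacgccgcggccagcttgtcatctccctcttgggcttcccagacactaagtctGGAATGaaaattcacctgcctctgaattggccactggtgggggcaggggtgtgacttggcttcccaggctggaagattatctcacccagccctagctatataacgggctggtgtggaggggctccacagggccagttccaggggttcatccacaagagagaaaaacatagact
Amotl2, chr9:102717554-102717853, plus strand: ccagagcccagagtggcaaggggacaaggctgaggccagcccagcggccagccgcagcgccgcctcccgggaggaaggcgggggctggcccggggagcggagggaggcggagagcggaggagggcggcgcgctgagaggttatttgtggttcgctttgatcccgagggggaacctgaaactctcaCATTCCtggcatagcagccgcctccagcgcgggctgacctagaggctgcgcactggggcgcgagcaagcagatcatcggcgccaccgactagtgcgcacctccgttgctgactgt
Ajuba, chr14:54577612-54577911, minus strand: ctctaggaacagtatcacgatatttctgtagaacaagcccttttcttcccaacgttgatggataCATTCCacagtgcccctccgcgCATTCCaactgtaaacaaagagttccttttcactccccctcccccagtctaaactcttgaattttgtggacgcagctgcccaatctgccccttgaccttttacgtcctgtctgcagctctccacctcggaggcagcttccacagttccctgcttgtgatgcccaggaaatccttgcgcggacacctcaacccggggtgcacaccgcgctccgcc
Wwtr1, chr3:57575861-57576160, minus strand: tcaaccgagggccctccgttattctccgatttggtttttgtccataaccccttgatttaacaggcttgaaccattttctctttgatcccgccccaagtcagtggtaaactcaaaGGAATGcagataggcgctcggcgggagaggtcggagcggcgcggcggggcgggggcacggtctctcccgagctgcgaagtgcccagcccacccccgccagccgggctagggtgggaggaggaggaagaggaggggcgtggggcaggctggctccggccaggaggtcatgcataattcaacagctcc

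RefSeq promoter windows were found for 8 of the 10 genes, 10 windows in all, and not for Ccn2 and Tead1. GGAATG, searched on both strands, was present in the windows of all 8 genes and in 9 of the 10 windows, the exception being the second window of Lats2. It was present in 14.7% of all 32851 windows of that length. Ankrd1 and Ajuba each held 2 matches, which 1.36% of all windows did. In Ccn1 the match began 103 bases before the start site and in Amotl2 65 bases before it, both on the opposite strand. The windows of Wwtr1 overlapped and shared a single match. Genes of this kind are known for TEAD binding, so these counts describe the choice of genes, and a match is not a site. The AP-1 motif TGANTCA, searched on both strands, was found in 0 of the 10 windows and in 7.81% of all windows, and the CArG box bound by SRF in 0 of 10 and in 1.63%. No motif of these contains another.

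**Figure D1:**
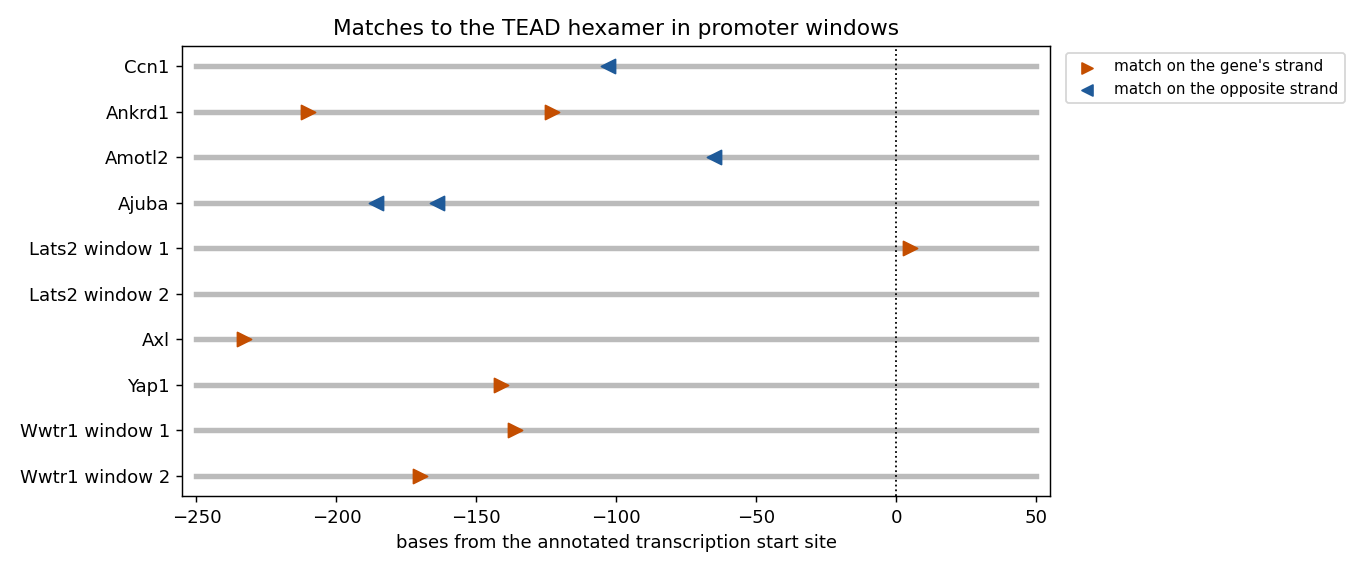
Matches to the TEAD hexamer in the promoter windows of 8 genes, plotted by the distance of the first base from the annotated start site (grey bar: the window, from 250 bases before to 50 bases after it). Right-pointing orange triangles are matches on the gene's strand and left-pointing blue ones on the opposite strand, and 9 of the 10 windows hold at least 1.

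Among the 10 genes, Ccn1 was far higher in knockout epidermis, Ajuba and Amotl2 were lower, and the other genes differed little or differed between their own probe sets. The secreted matrix protein gene Ccn1 was 6.68-fold higher by its brightest probe set. Its closest relative among the targets, Ccn2, differed by 0.32 ± 0.58 (SE). Yap1 and Tead1 differed by -0.34 ± 0.20 (SE) and 0.02 ± 0.11 (SE) by their brightest probe sets. The groups did not overlap for 7 of the 24 probe sets, or 29.2%, while over all probe sets the share was 7.18%. Of the 7, 5 were higher and 2 lower in knockout, with shares of 2.82% and 4.36% over all probe sets. The 7 belong to 5 genes, and since probe sets of a gene read the same RNA and the genes were chosen with this contrast known, nothing is read from that share. In limma over all genes 1 of the 10 genes, Ccn1, passed an adjusted p of 0.05 as higher and 0 as lower. Over all genes 1.24% passed, 0.511% as higher and 0.731% as lower. The choice of the genes used this contrast, so nothing is read from that count or from whether Ccn1 passed under any setting. Ccn1 did not pass when knockout array 1, 2 or 4 or wildtype array 1, 2 or 4 was left out, one at a time, nor with the mean of its probe sets, without the less specific ones, or with the Xist level as a covariate.

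**Figure D2:**
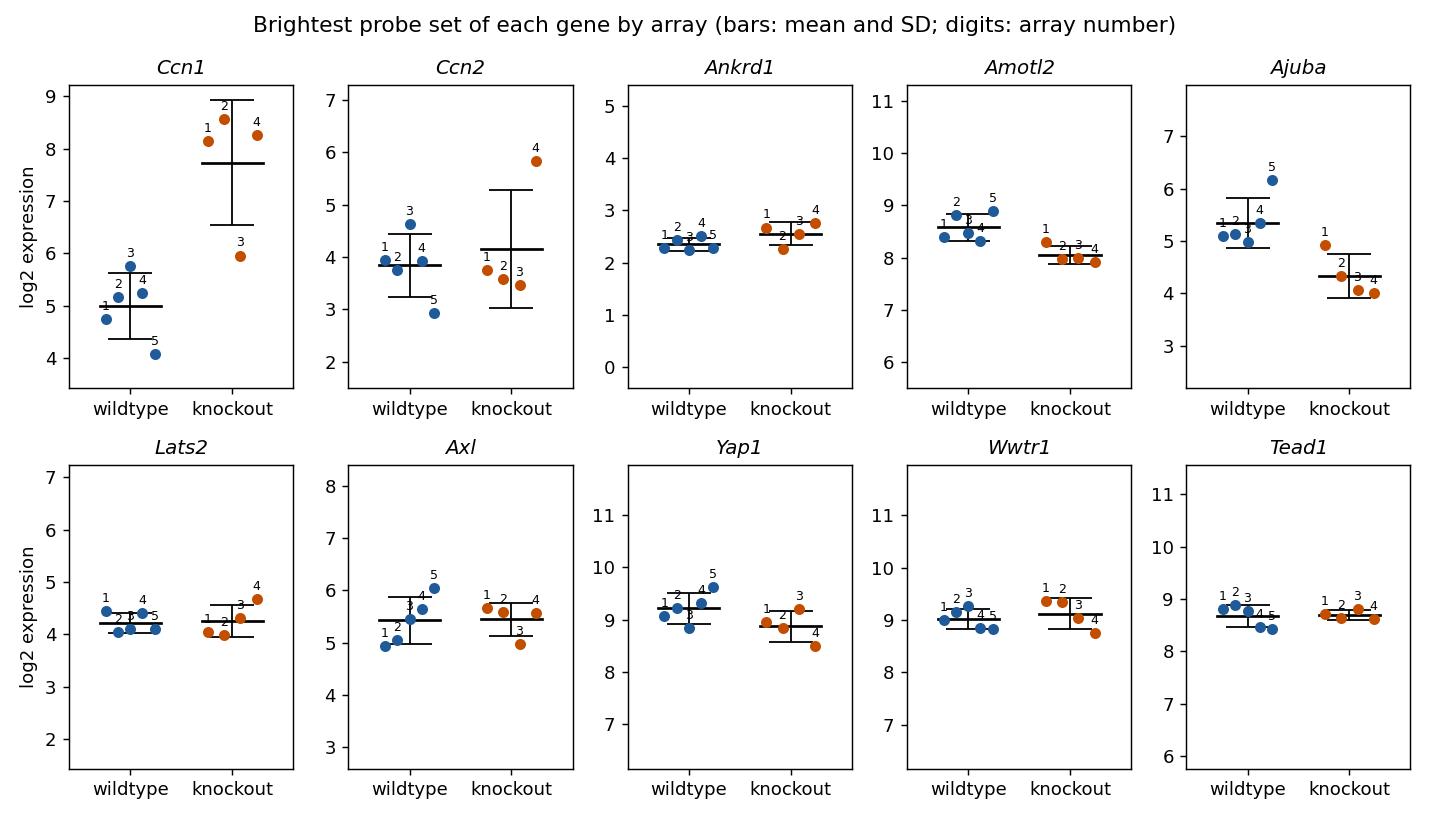
Log2 expression of the brightest probe set of each of the 10 genes on the 5 wildtype (blue) and 4 knockout (orange) arrays. Digits are array numbers, the long bar is the mean and the whiskers are the SD, and every panel spans the same number of log2 units. Ccn1 stands out by its size and by the low value, 5.96, of knockout array 3.

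The coactivator gene Yap1 was measured by a pair of probe sets. The brighter, 1448363_at, read 8.96, 8.84, 9.21 and 8.49 on knockout arrays 1 to 4 and 9.08, 9.22, 8.84, 9.32 and 9.62 on wildtype arrays 1 to 5. The groups overlapped, with the highest value on wildtype array 5 and the lowest on knockout array 4. The dimmer, 1416487_a_at, read 4.69 to 5.89 on the knockout arrays and 5.00 to 5.65 on the wildtype arrays, a difference of -0.10 ± 0.28 (SE). Neither probe set separated the groups.

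Wwtr1 encodes TAZ, the paralogue of YAP, and its 3 probe sets did not give the same picture. The brightest, 1417818_at, read 9.36, 9.35, 9.03 and 8.76 on knockout arrays 1 to 4 and 9.01, 9.15, 9.27, 8.85 and 8.82 on wildtype arrays 1 to 5, and its groups overlapped. The second, 1417817_a_at, read 8.35, 8.28, 8.45 and 8.30 on the knockout arrays and 7.94, 7.98, 8.15, 7.74 and 7.53 on the wildtype arrays. Here every knockout array lay above every wildtype array. The difference was 0.48 ± 0.13 (SE), or 1.39-fold. The dimmest, 1437155_a_at, read 7.87, 7.85, 7.55 and 7.64 on the knockout arrays and 7.32, 7.45, 7.45, 6.91 and 7.03 on the wildtype arrays. It also kept the groups apart, with a difference of 0.49 ± 0.14 (SE). The brightest probe set differed by 0.11 ± 0.16 (SE), and the mean of the 3 by 0.36. Which transcripts each probe set reads was not used here. On wildtype array 4, the wildtype array with high Xist, the second and the dimmest probe set read 7.74 and 6.91, below the knockout arrays. The part of sex in the Wwtr1 values was not tested.

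Tead1 encodes a DNA-binding partner of YAP and TAZ. Its brighter probe set, 1429556_at, read 8.71, 8.64, 8.81 and 8.61 on knockout arrays 1 to 4 and 8.80, 8.89, 8.77, 8.46 and 8.42 on wildtype arrays 1 to 5. These values overlapped, and the knockout arrays lay within the wildtype range. The dimmer, 1423434_at, read 4.62, 4.79, 4.56 and 4.70 on the knockout arrays and 3.94, 4.46, 4.55, 4.13 and 3.57 on the wildtype arrays. The groups were apart there by 0.01, between knockout array 3 and wildtype array 3, and the difference was 0.54 ± 0.21 (SE). Tead1 thus has a pair of probe sets that differ from each other in what they show, and the brighter does not separate the groups.

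Lats2 encodes a kinase that phosphorylates YAP and TAZ, and its gene is itself a YAP target. Its 6 probe sets were dim, with means over all arrays from 2.16 to 4.23, and no detection calls were at hand for this work, so they may not lie above background. The brightest, 1419678_at, read 3.99 to 4.67 on the knockout arrays and 4.04 to 4.44 on the wildtype arrays, a difference of 0.04 ± 0.17 (SE). The largest difference by size was -0.42 ± 0.13 (SE), in 1439441_x_at, which read 3.25 to 3.57 on the knockout and 3.50 to 4.04 on the wildtype arrays. The groups overlapped for all 6 probe sets, and 4 of the 6 differences were negative.

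Ajuba, a LIM domain protein of cell junctions that binds and restrains LATS kinases, was lower in knockout. Its only probe set, 1421344_a_at, read 4.92, 4.34, 4.06 and 4.00 on knockout arrays 1 to 4 and 5.10, 5.14, 4.98, 5.35 and 6.17 on wildtype arrays 1 to 5. Every knockout array lay below every wildtype array, with 0.06 between knockout array 1 and wildtype array 3. The difference was -1.02 ± 0.31 (SE), or 0.493 of the wildtype level as measured. The knockout mean was 4.33, and without detection calls the knockout values may not lie above background. Without wildtype array 5, the highest, the difference was -0.81. On that array the basal keratin Krt14 read 7.36, against 8.58 to 9.65 on the other 8 arrays. Trp63, the basal transcription factor gene, read 8.65 there and 7.05 to 7.49 on the other wildtype arrays. On the knockout arrays it read 5.30 to 6.67, so its groups did not overlap, while those of Krt5, Krt14, Itga6 and Itgb4 did. The part of the cell makeup of that array, or of basal cells in either group, in the Ajuba difference was not tested.

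Amotl2, an angiomotin family scaffold that holds YAP at junctions and is induced by YAP, was also lower in knockout. Its only probe set, 1452387_a_at, read 8.29, 7.98, 8.00 and 7.91 on knockout arrays 1 to 4 and 8.39, 8.82, 8.47, 8.32 and 8.89 on wildtype arrays 1 to 5. The groups did not overlap, but knockout array 1 and wildtype array 4 were only 0.03 apart. The difference was -0.53 ± 0.15 (SE), or 0.692 of the wildtype level. The lowest wildtype value was that of array 4, and with the Xist level as a covariate the difference was -0.28. The part of sex in it was not tested. Ajuba and Amotl2 each rest on a single probe set of a kind that can read several transcripts of a gene.

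**Figure D3:**
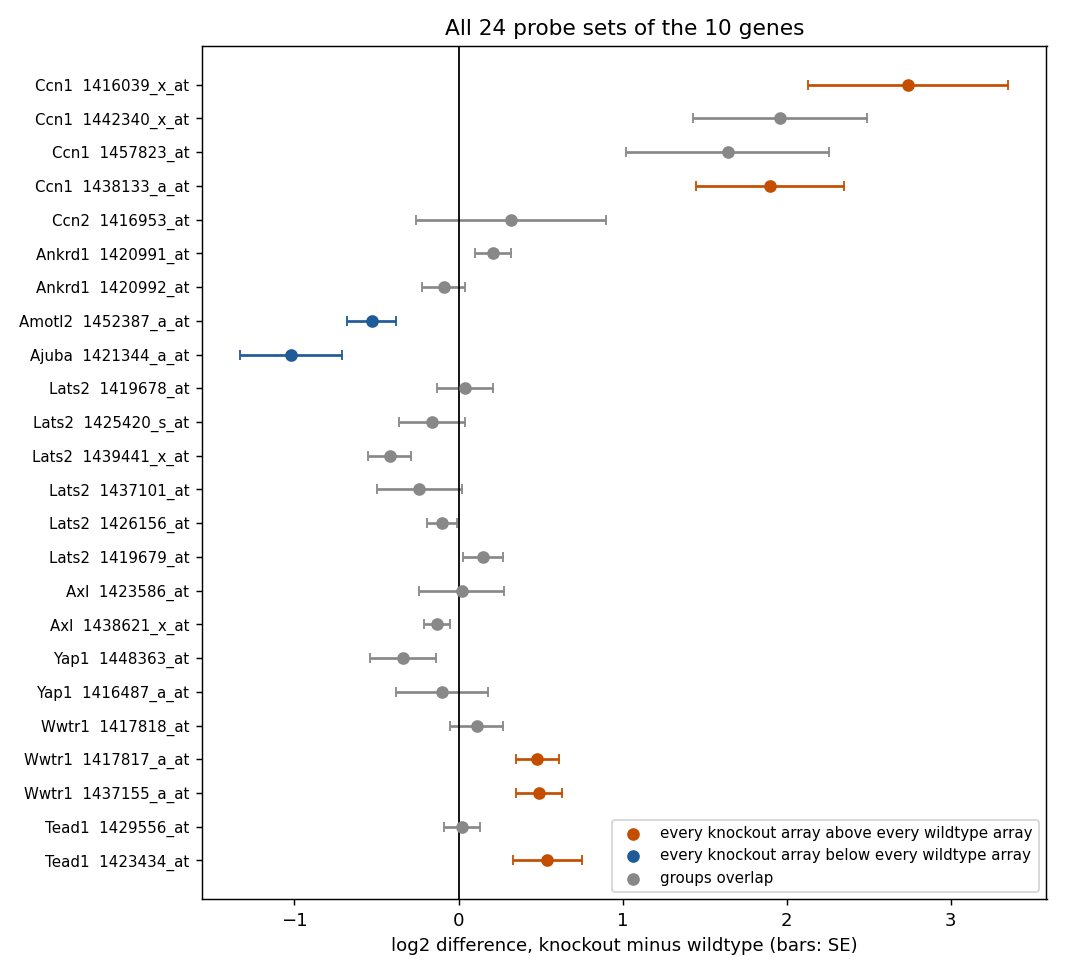
Log2 difference, knockout minus wildtype, for each of the 24 probe sets (points) with the SE from the pooled spread of the arrays (bars). Orange marks the 5 probe sets with every knockout array above every wildtype array, blue the 2 with every knockout array below, and grey the 17 that overlap.

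Ccn1 encodes a secreted matricellular protein that binds integrins, and besides YAP it is a classical immediate early target of growth factors. Its brightest probe set, 1416039_x_at, read 8.14, 8.57, 5.96 and 8.26 on knockout arrays 1 to 4 and 4.74, 5.17, 5.76, 5.24 and 4.07 on wildtype arrays 1 to 5. Knockout arrays 1, 2 and 4 stood together, and knockout array 3 lay just above the highest wildtype array. The means were 7.74 ± 1.20 (SD, n = 4) and 5.00 ± 0.63 (SD, n = 5), a difference of 2.74 ± 0.61 (SE). Without knockout array 3 it was 3.33.

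The other 3 probe sets of Ccn1 were dimmer and gave smaller differences. The probe set 1442340_x_at read 5.60, 6.24, 3.62 and 5.76 on knockout arrays 1 to 4 and 2.86 to 3.70 on the wildtype arrays, a difference of 1.96 ± 0.53 (SE). The probe set 1438133_a_at read 5.23, 5.70, 3.58 and 5.27 on the knockout arrays and 2.70 to 3.47 on the wildtype arrays, a difference of 1.90 ± 0.45 (SE). The probe set 1457823_at, the only one whose name carries no mark of a less specific design (x for probes that may bind other transcripts, a for several transcripts of a gene), read 5.28, 6.13, 3.02 and 5.09 on the knockout arrays and 2.87 to 3.89 on the wildtype arrays, a difference of 1.64 ± 0.62 (SE). In all 4 probe sets knockout array 2 was the highest and knockout array 3 the lowest of its group. On array 3 the value fell within the wildtype range in 1442340_x_at and 1457823_at and above it in the other two. The size of the difference therefore depended on the probe set, from 3.12-fold to 6.68-fold, while its direction did not. The wildtype means of 1442340_x_at, 1438133_a_at and 1457823_at, 3.35, 3.04 and 3.24, were near the array medians and may not lie above background. The part of background in their smaller differences was not tested.

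Measures of other cells can be set beside Ccn1. Knockout array 3 had the lowest fibroblast marker mean of its group, 5.76, and wildtype array 5, where Ccn1 was lowest, the lowest of the wildtype group, 5.43. Wildtype array 3, where Ccn1 was highest among the wildtype arrays, had the highest of that group, 7.47. Knockout array 4 had the highest fibroblast mean of all 9 arrays, 8.71. Its Ccn1 value, 8.26, lay between 8.14 on knockout array 1 and 8.57 on knockout array 2. Knockout arrays 1 and 2 had fibroblast means of 6.96 and 6.99. Among the 5 arrays with high Xist, Ccn1 read 5.24 on wildtype array 4 and 5.96 to 8.57 on the knockout arrays. The part of dermal cells and of sex in the Ccn1 values was not tested.

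Ccn2, the connective tissue growth factor gene and the textbook partner of Ccn1 as a YAP target, differed little. Its only probe set, 1416953_at, read 3.75, 3.58, 3.46 and 5.84 on knockout arrays 1 to 4 and 3.95, 3.75, 4.63, 3.93 and 2.94 on wildtype arrays 1 to 5. Apart from knockout array 4 the knockout values lay within the wildtype range. The probe set was dim, with a mean over all arrays of 3.98, and without detection calls it may not lie above background. The difference was 0.32 ± 0.58 (SE), and without knockout array 4 it was -0.24. Knockout array 4 had the highest fibroblast and smooth muscle means of all 9 arrays, 8.71 and 6.16, and Acta2 read 9.19 there against 4.42 to 5.35 elsewhere. Among the wildtype arrays Ccn2 was also highest where the fibroblast mean was highest, on array 3, and lowest where it was lowest, on array 5. The part of dermal cells in the Ccn2 values was not tested.

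**Figure D4:**
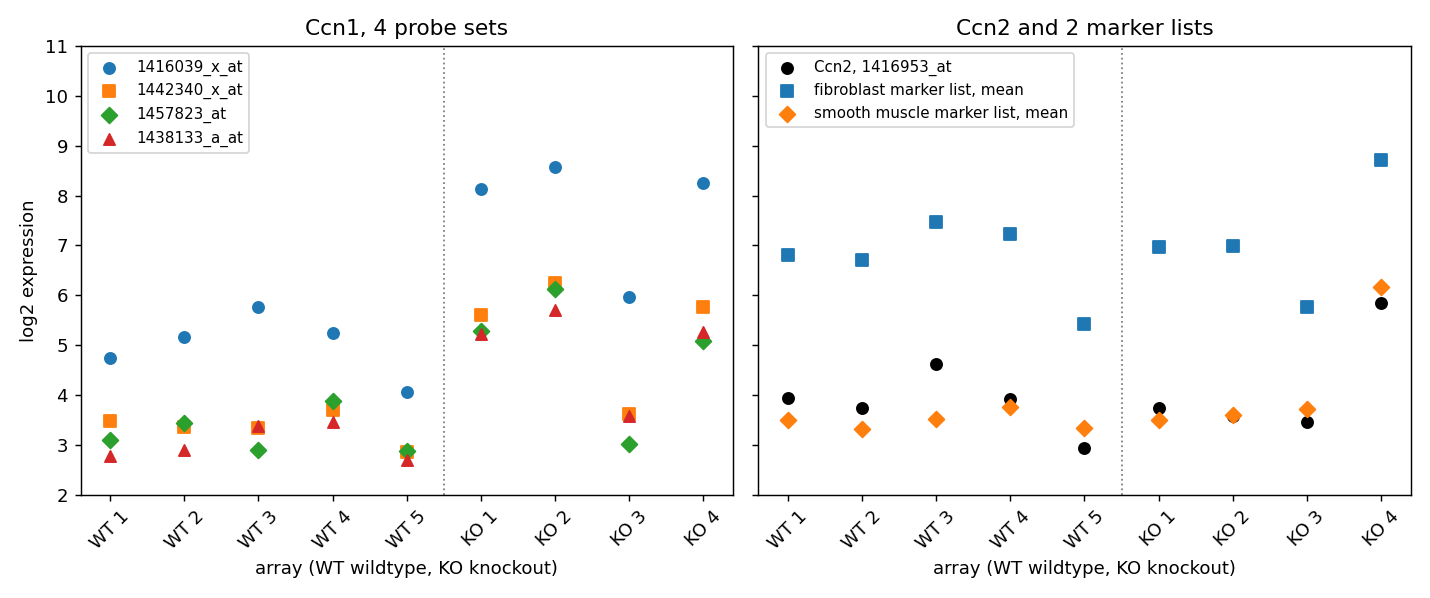
Log2 expression by array of the 4 probe sets of Ccn1 (left) and of Ccn2 with the means of the fibroblast and smooth muscle marker lists (right), wildtype arrays before the dotted line and knockout arrays after it. Knockout array 3 is the lowest knockout array in each Ccn1 probe set, and Ccn2 and both marker lists are highest on knockout array 4.

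Ankrd1, a nuclear ankyrin repeat protein best known from the heart, is among the strongest YAP targets in cultured cells. Its probe sets read 2.26 to 2.75 and 2.08 to 2.65 on the knockout arrays and 2.24 to 2.51 and 2.34 to 2.52 on the wildtype arrays. All these values lay below the array medians, and in the absence of detection calls from this work Ankrd1 may not be above background in either group. The differences were 0.21 ± 0.11 (SE) and -0.09 ± 0.13 (SE), of opposite sign. Its promoter, shown above, holds 2 copies of the hexamer.

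Axl encodes a receptor tyrosine kinase for the ligand Gas6. Its brighter probe set, 1423586_at, read 5.66, 5.58, 4.98 and 5.56 on knockout arrays 1 to 4 and 4.94, 5.05, 5.45, 5.64 and 6.04 on wildtype arrays 1 to 5. The groups overlapped widely, and the difference was 0.02 ± 0.26 (SE). The lowest knockout value was again that of array 3. The dimmer probe set, 1438621_x_at, read 2.34 to 2.66 on the knockout and 2.53 to 2.83 on the wildtype arrays.

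Pairs of the 10 genes varied in different ways within the groups. Deviations from the group means over all 9 arrays gave r = 0.52 and rho = 0.47 for Ccn1 and Ccn2 and r = -0.20 and rho = -0.30 for Ccn1 and Amotl2. The highest r of the 45 pairs was 0.72, for Ajuba and Axl, and the lowest was -0.88, for Ccn2 and Yap1. These are descriptions over arrays that share the same few samples. The pooled SD within the groups was 0.92 for the brightest Ccn1 probe set, larger than in 99.4% of all probe sets, and 0.87 for Ccn2, larger than in 99.2%. It was 0.17 for the brightest Tead1 probe set, larger than in 27.5%.

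Among genes with a mean of at least 5, those whose deviations from the group means ran most like Ccn1 over the 9 arrays were Wdr55 (r = 0.993, rho = 0.983), the actin-bundling protein gene Fscn1 (r = 0.984, rho = 0.933), H13 (r = 0.975, rho = 0.900), Nans (r = 0.967, rho = 0.917) and Vps11 (r = 0.959, rho = 0.967). Fscn1 read 6.72, 7.23, 5.02 and 7.23 on knockout arrays 1 to 4 and 5.21 to 6.56 on the wildtype arrays, so its lowest knockout value was again that of array 3. Those most like Ccn2 were the matrix genes Lum (r = 0.970, rho = 0.933) and Fn1 (r = 0.950, rho = 0.983) with Igf2 (r = 0.952, rho = 0.933), Capn6 (r = 0.940, rho = 0.917) and Gpc3 (r = 0.939, rho = 0.983). Lum, a fibroblast marker in the list above, was highest on knockout array 4, at 8.15, and elsewhere read 4.01 to 6.00. Those most like Amotl2 were Firre, Mycbp2, Gatad2b, Gdap2 and Pak3, with r from 0.895 to 0.938 and rho from 0.750 to 0.917. The sets for Ccn1, Ccn2 and Amotl2 had no gene in common. Each set was picked as the highest r of 7183 or 7184 genes over 9 arrays, so high values come with the choice.

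The other genes of the pathway were taken as lists and tested with limma over all 18193 genes. Of 64 genes in 6 lists 63 were measured and 0 passed an adjusted p of 0.05. At an unadjusted p under 0.05 there were 9, or 14.3%, while over all genes the share was 17.8%. The groups did not overlap for 5 of the 63, or 7.94%, and for 8.28% of all genes. The 5 were Mob1a, lower in knockout, and Wwc1, Tead3, Srf and Actg1, higher, some of them named after their values were seen.

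Of the Hippo kinases and their upstream regulators 13 of 14 were measured, and 3 of the 13 differences were positive. The median was -0.20, against 0.02 over all genes, where 9729 of 18193 differences were positive. The lists were not matched to all genes by level. Mob1a, a coactivator of LATS kinases, read 7.00 ± 0.55 (SD, n = 4) against 7.69 ± 0.20 (SD, n = 5), a difference of -0.68 ± 0.23 (SE) with a limma adjusted p of 0.176. The scaffold gene Sav1 differed by -0.59 ± 0.24 (SE, limma adjusted p of 0.246). Among 12 scaffold and polarity genes the median was -0.16 and 4 differences were positive. The LIM protein gene Limd1, a relative of Ajuba, differed by -0.63 ± 0.19 (SE, limma adjusted p of 0.146), and Sfn, the 14-3-3 sigma gene of keratinocytes, by 0.51 ± 0.24 (SE, limma adjusted p of 0.299).

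The 7 TEAD and VGLL genes had a median of 0.07. Vgll2 differed by 0.32 ± 0.17 (SE, limma adjusted p of 0.338) and Tead3 by 0.25 ± 0.12 (SE, limma adjusted p of 0.290). The wildtype mean of Vgll2, 2.81, may not lie above background. The 16 other targets of YAP and TAZ had a median of 0.08, with 9 positive differences and 1 gene at an unadjusted p under 0.05. Over all genes the share at that p was 17.8%, and 9729 of 18193 differences were positive. Gadd45a, a growth arrest gene, read 6.62 against 5.88, a difference of 0.74 ± 0.49 (SE, limma adjusted p of 0.452), and Tgfb2 differed by 0.40 ± 0.19 (SE, limma adjusted p of 0.299). The wildtype mean of Tgfb2, 3.35, may not lie above background either. The 4 other CCN genes had positive differences with a median of 0.40. Ccn3 differed by 0.54 ± 0.44 (SE, limma adjusted p of 0.532) and Ccn4 by 0.46 ± 0.28 (SE, limma adjusted p of 0.402), at wildtype means of 3.40 and 3.36 that may not lie above background.

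The 12 genes of SRF and the actin cytoskeleton, a route that also drives Ccn1 in other cells, had a median of -0.02. Fhl2 differed by 0.76 ± 0.37 (SE, limma adjusted p of 0.315) and Myh9 by -0.54 ± 0.24 (SE, limma adjusted p of 0.277). Srf differed by 0.42 ± 0.19 (SE, limma adjusted p of 0.267) and Actg1 by 0.31 ± 0.10 (SE, limma adjusted p of 0.166). For Srf and Actg1 every knockout array lay above every wildtype array. Of the 12 differences 5 were positive. Of the 9 AP-1 and Egr genes, transcription factors of the immediate early response, 6 passed an adjusted p of 0.05 as higher and 0 as lower. Over all genes 0.511% passed as higher and 0.731% as lower. The list was chosen with earlier results of these data known, so nothing is read from that count. All 9 differences were positive. The median of the 9 was 2.18. Fosb rose by 2.97 ± 0.30 (SE, limma adjusted p of 0.00132), Junb by 2.18 ± 0.16 (SE, limma adjusted p of 0.000273) and Egr1 by 2.31 ± 0.26 (SE, limma adjusted p of 0.00292). Atf3, Fos and Jun rose by 2.57, 1.37 and 1.27. Fos did not pass without knockout array 2, 3 or 4 or wildtype array 1, 2, 3 or 4, nor Atf3 without knockout array 2 or 4, and with the Xist level as a covariate Junb alone of the 6 passed. Fosl1, which did not pass, read 7.84 ± 1.30 (SD, n = 4) against 4.96 ± 1.06 (SD, n = 5), and its limma adjusted p was 0.0607.

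**Figure D5:**
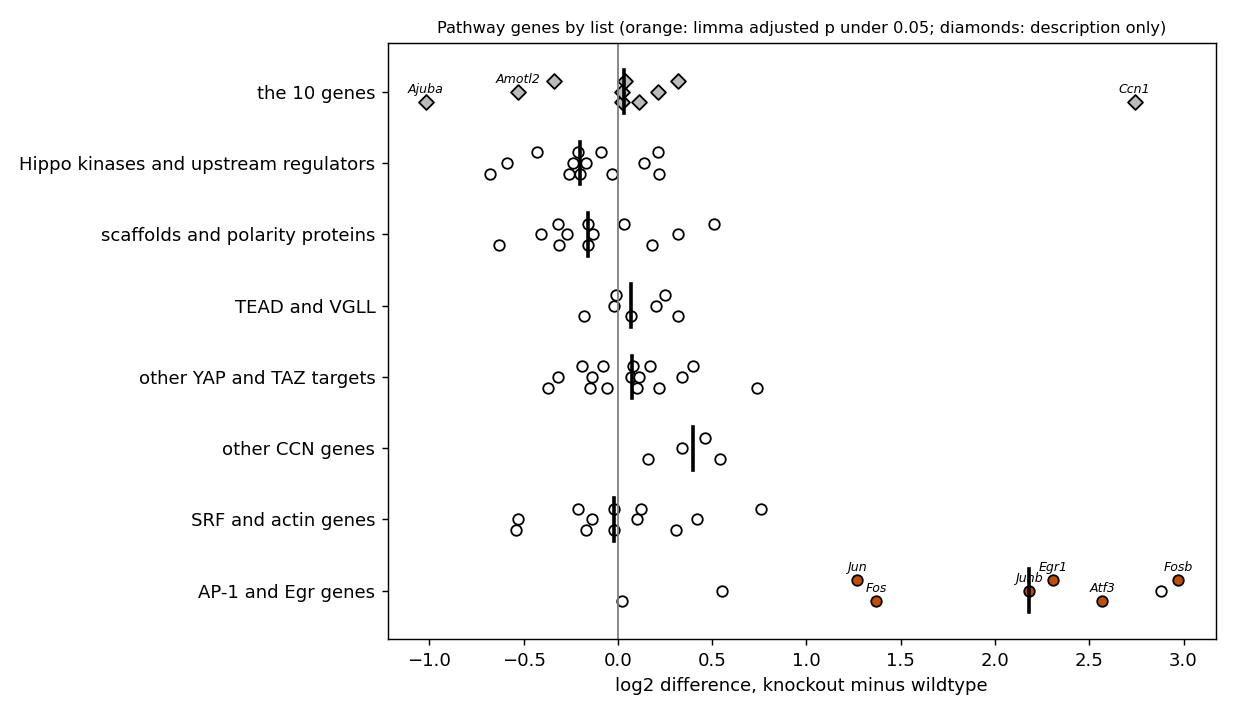
Log2 difference, knockout minus wildtype, of the 10 genes (grey diamonds, given as a description whether or not they passed) and of the genes of 7 pathway lists (circles, orange where the limma adjusted p was under 0.05), with the median of each list as a bar. The called genes of the 7 lists, 6 in all, are in the AP-1 and Egr list.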

How the data were processed

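RNA of newborn trunk epidermis was labelled with biotin and read on 9 Affymetrix arrays of the Mouse Genome U430 2.0 type, as the labels' protocols state. The authors deposited log2 expression values for 45037 probe sets. That the scale is log2 follows from their range of 1.43 to 14.46. Per the submitters' processing notes the affy package was used. Its version and the methods of background correction, normalization and summary are not given in the sources used for this work. Precision is limited by the number of arrays.

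Groups and replicate numbers came from sample titles. No 2 arrays of a group shared more than 124 identical values. The platform annotation named the probe sets, 34945 with 1 gene, 932 with several and 9160 not listed, and symbols were updated by gene number through the GRCm38.p6 gene table, which 34741 matched. A gene was represented by its probe set with the highest mean. The test was limma 3.58.1 under R 4.3.3, with lmFit, eBayes and genotype as the only term, and Benjamini-Hochberg adjustment over 18193 genes at a threshold of 0.05. The SE of the described genes comes from the pooled SD of the arrays. Named genes were all probe sets of the 10 genes, each list's called genes and its 2 largest differences by size, and the 5 genes most like Ccn1, Ccn2 and Amotl2. List genes whose groups did not overlap were named as well, some after their values were seen. The members, lists and rules were chosen with earlier results of these data known. The code was tested on simulated data. Alternatives were other probe set summaries, a level filter, quantile normalization, median centring, other eBayes settings, array weights, an Xist covariate, the replicate block and each array left out.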

Additional observations from a re-analysis of the deposited data

Results flagged for a closer look

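Of 48 groups of arrays, 24 probe sets in each of 2 groups, 3 held an array whose gap to its nearest neighbour took up most of the range of the group. Chance alone marks about 1 in 20 groups. For Ccn1 probe set 1416039_x_at, knockout array 3 read 5.96 and the other knockout arrays 8.14 to 8.57. For Ccn2, knockout array 4 read 5.84 and the others 3.46 to 3.75. For Axl probe set 1423586_at, knockout array 3 read 4.98 and the others 5.56 to 5.66. The cause of these values was not tested.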

How the results depend on the processing

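Over all genes 226 were called, and 6 in the pathway lists. With array weights the counts were 1644 and 14, with the Xist covariate 9 and 1. The replicate block gave 119 and 5, but the numbers did not pair the arrays: same-numbered arrays had correlations of deviations of -0.21, -0.10, -0.21 and 0.18, and only knockout array 4 correlated best with its own number. Leaving out each array in turn gave 62 to 281 genes and 4 to 6 list genes. The total was 62 without knockout array 2, 87 without knockout array 4, and 83, 71 and 89 without wildtype arrays 1, 2 and 4. Ccn1 was not called with the mean of its probe sets, without the less specific ones, with the Xist covariate, with the replicate block, or without knockout array 1, 2 or 4 or wildtype array 1, 2 or 4. Its difference lay between 1.64 and 3.33 under every alternative run. With array weights Amotl2 and Ajuba were called as well, both lower. Under that setting 932 of all 18193 genes were called lower, against 133 in the main fit. The choice of the 10 genes used this contrast, so nothing is read from the calls of Ccn1, Amotl2 and Ajuba under any setting. Fos was not called under 9 of 18 alternatives, Atf3 under 3, and Fosb, Jun and Egr1 under 1, the Xist covariate, while Junb was called under all 18. The cause was not tested. What dim probe sets can show is limited, since no detection calls were used.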
